A study of Mus musculus with 108 samples.

Results

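Chromatin states at the keratin and keratin-associated genes were examined in livers of C57BL/6 female mice. Members were all autosomal protein-coding RefSeq genes whose symbol is Krt followed by a digit, or begins with Krtap. This rule found 109 genes, 53 keratins and 56 keratin-associated genes, of 20558 autosomal protein-coding genes. They lay on 6 chromosomes, and 105 of them lay in 4 clusters of at least 5 members with gaps of at most 500 kb. The first cluster held 5 Krtap5 genes on chromosome 7, from Krtap5-2 to Krtap5-4. The chromosome 11 cluster held 50 genes from Krt222 to Krt42 and included all the type I keratins named below except Krt18. The chromosome 15 cluster held 26 genes from Krt80 to Krt18 and included the type II keratins. The chromosome 16 cluster held 24 Krtap genes from Krtap24-1 to Krtap11-1. The other 4 members, Krtap28-13, Krtap12-1, Krtap10-4 and Krtap10-10, lay outside the clusters.

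The series profiled 4 histone marks by ChIP-seq, chromatin immunoprecipitation followed by sequencing, in formalin-fixed, paraffin-embedded liver. Mice of SD 3m and SD 12m received a standard diet and were 3 and 12 months old, and mice of CR 12m were 12 months old on a diet with 30% caloric restriction. SD 3m comprised 8 mice and 30 libraries, SD 12m 8 mice and 29 libraries, and CR 12m 9 mice and 29 libraries, over H3K4me3, H3K27me3, H3K27ac and H3K4me1. In this order of groups, H3K27me3 had 7, 8 and 6 libraries and H3K4me3 had 7, 8 and 5. H3K27ac had 8, 7 and 9, and H3K4me1 had 8, 6 and 9. SD 6m, the standard-diet group of 6 months, was not analysed here. All groups share the strain, the sex, the tissue and the fixation. The authors merged the libraries of each group before they assigned 1 of 8 chromatin states to every 200 bp bin, so each group has 1 segmentation. No difference between groups could therefore be set against the spread between mice, no test was possible, and the number of reads behind a state is unknown. State 1 (Active TSS) and state 2 (Flanking TSS) mark promoters, state 3 and state 4 (Active enhancer) and state 5 (Poised enhancer) mark enhancers. State 6 (Repressed Polycomb) carries H3K27me3 alone, state 7 (Repeats/cLAD) carries weak H3K4me3 and hardly any H3K27me3, and state 8 (Quiescent) carries none of the marks. Each value below for a TSS, the transcription start site of the longest curated transcript, is the state of the bin that holds it.

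Keratins are the intermediate filament proteins of epithelial cells. A filament is assembled from pairs of a type I and a type II keratin, and each epithelium uses its own pairs. Hepatocytes use Krt8 with Krt18, and bile duct cells add Krt7 and Krt19. Basal keratinocytes of the epidermis use Krt5 with Krt14, differentiating keratinocytes use Krt1 with Krt10, and the hair follicle uses a large set of hair keratins. Keratin-associated proteins form the matrix between the hair keratin filaments of the shaft. H3K27me3 is laid down by Polycomb repressive complex 2 and is known for broad domains over genes of other lineages, among them clustered genes that a tissue does not use.

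Promoter sequences were available for 87 of the 109 members, from RefSeq (GRCm38.p6), as 250 bases before to 50 bases after the start. The 5 below are shown because they contrast the hepatocyte pair Krt8 and Krt18 and the bile duct keratin Krt7 with the epidermal pair Krt5 and Krt14. They are written 5′ to 3′ on the strand of the gene, and capitals mark CpG dinucleotides. The Krt8 promoter is chr15:102004293-102004592 (minus strand), that of Krt18 is chr15:102027966-102028265 (plus strand), and that of Krt7 is chr15:101412153-101412452 (plus strand). The Krt5 promoter is chr15:101712856-101713155 (minus strand), and the window for Krt14 is chr11:100205981-100206280 (minus strand). For Krt14 the promoter table's start site lies 1480 bp downstream of the Krt14 TSS used for the states. The Krt14 window thus lies inside the annotated gene and is not the sequence at that TSS. Both start sites carried the same 3 states.
Krt8: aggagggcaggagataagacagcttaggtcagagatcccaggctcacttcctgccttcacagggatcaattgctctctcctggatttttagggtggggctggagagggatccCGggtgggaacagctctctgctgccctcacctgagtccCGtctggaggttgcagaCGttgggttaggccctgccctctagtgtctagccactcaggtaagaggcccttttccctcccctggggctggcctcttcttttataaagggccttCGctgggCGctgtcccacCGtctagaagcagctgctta
Krt18: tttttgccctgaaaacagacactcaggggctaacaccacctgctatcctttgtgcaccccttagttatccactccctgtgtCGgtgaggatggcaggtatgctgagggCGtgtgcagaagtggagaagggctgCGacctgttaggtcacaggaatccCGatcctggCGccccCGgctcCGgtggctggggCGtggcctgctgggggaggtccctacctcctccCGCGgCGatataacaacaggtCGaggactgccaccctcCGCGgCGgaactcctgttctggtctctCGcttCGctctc
Krt7: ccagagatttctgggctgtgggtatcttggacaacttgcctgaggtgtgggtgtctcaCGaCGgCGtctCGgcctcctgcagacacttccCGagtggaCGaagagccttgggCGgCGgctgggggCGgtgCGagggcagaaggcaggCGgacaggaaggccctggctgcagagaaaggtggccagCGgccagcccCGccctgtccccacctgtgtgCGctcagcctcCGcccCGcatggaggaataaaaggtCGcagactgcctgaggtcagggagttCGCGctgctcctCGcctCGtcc
Krt5: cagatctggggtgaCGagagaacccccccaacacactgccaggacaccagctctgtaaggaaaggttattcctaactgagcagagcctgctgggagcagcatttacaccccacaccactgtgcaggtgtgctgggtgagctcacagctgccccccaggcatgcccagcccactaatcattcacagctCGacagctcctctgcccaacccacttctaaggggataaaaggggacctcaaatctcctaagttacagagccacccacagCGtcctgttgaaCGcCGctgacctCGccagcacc
Krt14: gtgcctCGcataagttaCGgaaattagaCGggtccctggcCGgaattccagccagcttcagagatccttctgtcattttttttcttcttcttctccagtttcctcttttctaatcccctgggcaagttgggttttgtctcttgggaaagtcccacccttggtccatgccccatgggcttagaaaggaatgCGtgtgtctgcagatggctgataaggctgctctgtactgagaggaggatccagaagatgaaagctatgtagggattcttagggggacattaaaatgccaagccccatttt

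The Krt7 promoter held 21 CpG and the Krt18 promoter 17, against 6 in each of Krt8 and Krt5. The Krt14 window, which lies inside the gene, held 5. The median over all members with a promoter was 3 CpG, against 14 over 16457 autosomal protein-coding promoters. Only 4 of the 87 member promoters (4.60%) held 10 or more CpG, namely Krt7, Krt18, Krt72 (11) and Krt28 (10), against 58.6% of all promoters. Keratin and keratin-associated promoters were thus mostly poor in CpG, whichever state they carried. Median CpG was 3 for the members in state 6 in SD 3m and 3 for those in state 8. Among all genes the median was 8 for promoters in state 6, 3 for those in state 8 and 24 for those in state 1. Members in state 6 therefore had the CpG content of the quiescent promoters of the genome and not that of its other promoters in state 6. Krt8, in state 1, lay below the genome's median for that state, at 6 CpG.

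**Figure D1:**
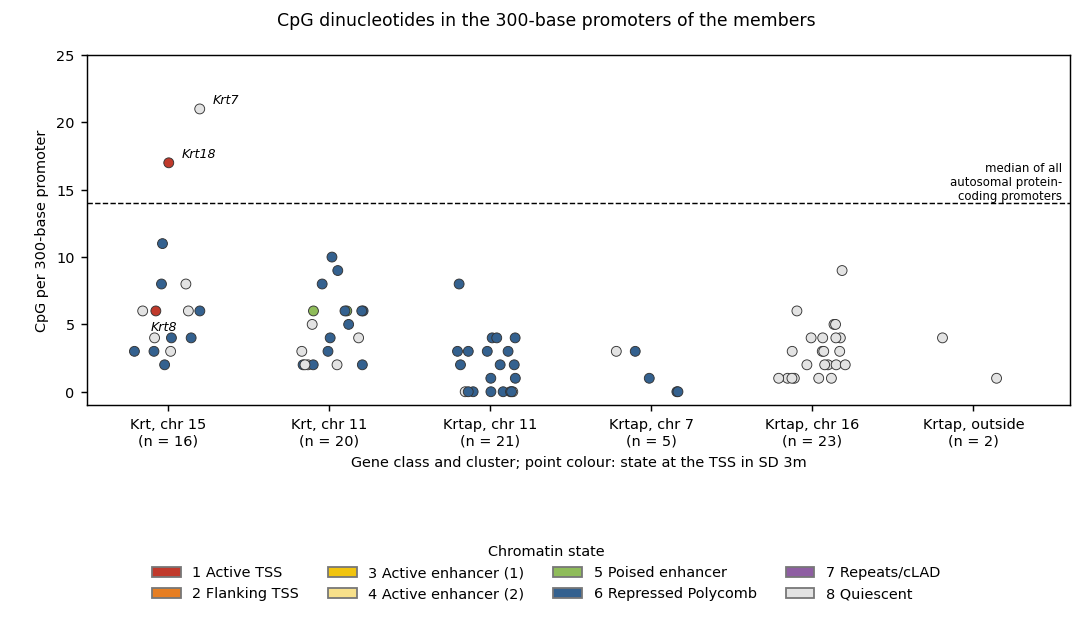
CpG dinucleotides per 300-base promoter (y) of the 87 members with a RefSeq promoter, by gene class and cluster (x). Each point is a gene, coloured by the state at its TSS in SD 3m, and the dashed line is the median of all autosomal protein-coding promoters (14). Krt7 (21) and Krt18 (17) lie above the line, and all other members below it.

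Short motifs also set the members apart in frequency. TATAAA, searched on both strands, occurred in 61 of 87 member promoters (70.1%), against 13.6% of all promoters, and in 42 of 51 Krtap promoters (82.4%). GGGCGG, the core of the GC box, occurred on either strand in 2 of 87 (2.30%), Krt7 and Krt75, against 47.3% of all. CCAAT occurred on either strand in 32 of 87 (36.8%), against 39.1% of all. TATAAA and its reverse complement can share bases. In the sequences above, Krt8 held TATAAA on both strands, starting 1 and 3 bases before the TSS (the positions -1 and -3), and Krt7 held 4 copies of GGGCGG, at -141, -128, -56 and -24. Krt18, Krt5 and the Krt14 window inside its gene held none of the 3 motifs. A match is a description of letters and not of a factor bound there.

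The tissue label was first set against marker genes. All 10 hepatocyte markers, a list that contains Krt8 and Krt18, were in states 1 to 5 in all 3 groups. Of 8 bile duct markers, a list that contains Krt7 and Krt19, states 1 to 5 held 4 in SD 3m, 5 among the SD 12m labels and 6 among those of CR 12m. Spp1, osteopontin, was in state 3 in all 3 groups. Of 11 keratinocyte markers, a list that contains Krt5, Krt14, Krt1 and Krt10, SD 3m had 0 in states 1 to 5. SD 12m and CR 12m had 1 each. Of 7 hair follicle markers, 1 was in states 1 to 5 in SD 3m and 2 in each other group, and of 4 mesothelium markers 1 in every group. The states thus placed hepatocyte markers in active and enhancer chromatin, bile duct markers only in part, and skin markers mostly outside it. As 3 of these lists contain members, the check is not independent of them.

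Over the 109 members, SD 3m had 52 TSS in state 6, 50 in state 8, 5 in state 5 and 2 in state 1. State 6 held 69 in SD 12m and 66 in CR 12m, and state 8 held 35 and 34. States 1 to 5 held 7, 5 and 9 TSS in the same order of groups. No member TSS was in state 7 in any group. Keratin genes were thus divided between Polycomb and quiescent chromatin, with a larger Polycomb share in both 12-month segmentations. Among all autosomal protein-coding genes, state 6 held 9.89%, 13.6% and 11.4% of TSS in SD 3m, SD 12m and CR 12m, and states 1 to 5 held 62.0%, 62.1% and 62.4%. State 7 held 1.63%, 3.78% and 1.55% of all TSS.

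A total of 23 of the 109 TSS (21.1%) differed in state between SD 3m and SD 12m, and 22 (20.2%) between SD 3m and CR 12m. Over all genes these shares were 32.3% and 35.0%, so the member shares lay below both. The shares of the keratins, 19 of 53 (35.8%) in each comparison, were near the background. Those of the keratin-associated genes were 4 of 56 (7.14%) and 3 of 56 (5.36%). Between SD 12m and CR 12m, 14 members (12.8%) differed, against 26.7% of all genes. Both comparisons use the same SD 3m segmentation, and neighbouring members share one domain, so neither the comparisons nor the genes are independent of each other.

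The main difference in label was from state 8 to state 6. SD 12m showed it at 17 members and CR 12m at 14, which is 15.6% and 12.8% of the 109, against 5.52% and 3.91% of all genes. Of the 50 members in state 8 in SD 3m this was 34.0% and 28.0%, against 20.8% and 14.8% of the 5447 genes of the genome in state 8. In the opposite direction, from state 6 to state 8, only Krt10 and Krtap4-9 were found in SD 12m and only Krt10 in CR 12m. Of the 52 members in state 6 in SD 3m, SD 12m had 50 in the same state and CR 12m had 51 (96.2% and 98.1%), against 74.2% and 66.9% of the 2033 genes in state 6. In all 3 groups together, 50 members were in state 6 throughout, against 6.05% of all genes, and 29 in state 8 throughout, against 15.5% of all genes.

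**Figure D2:**
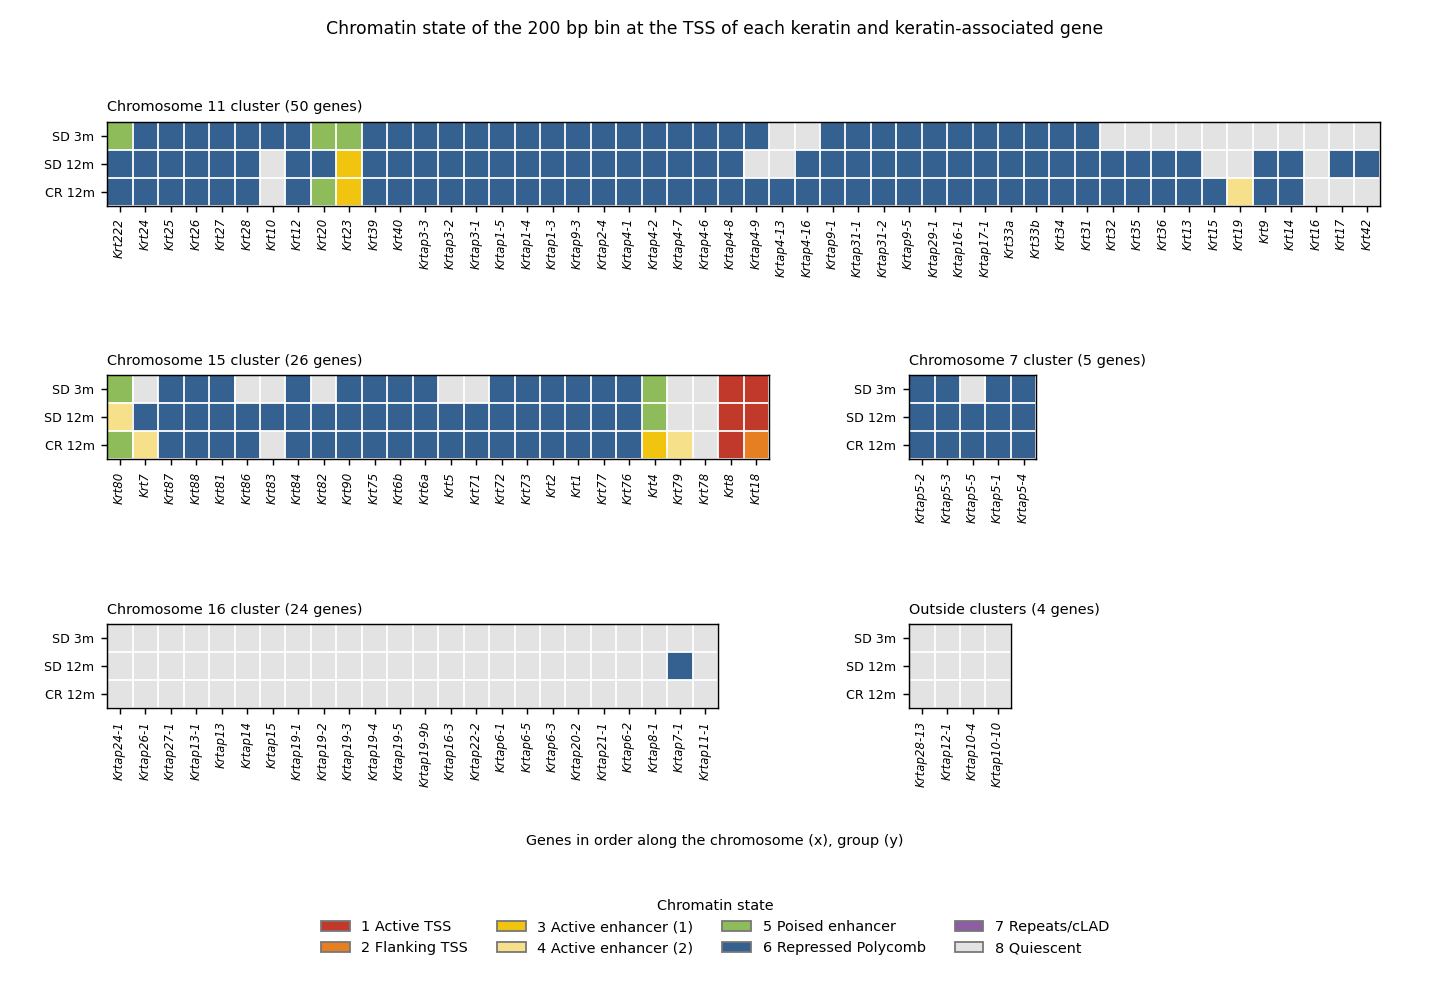
State of the 200 bp bin at the TSS of each of the 109 members (columns, in order along each chromosome) in SD 3m, SD 12m and CR 12m (rows), with colours for the 8 states. Red and orange appear only at Krt8 and Krt18, the chromosome 16 cluster is quiescent apart from Krtap7-1 in SD 12m, and the right end of the chromosome 11 cluster is quiescent in SD 3m and largely Polycomb in both other groups.

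The hepatocyte keratins Krt8 and Krt18 were the only members in states 1 or 2 at the TSS. Krt8 (chr15:101996711-102004342) was in state 1 in SD 3m, SD 12m and CR 12m. Krt18 (chr15:102028216-102032026) was in state 1 in SD 3m and SD 12m and in state 2 in CR 12m. The pair, 1 type II and 1 type I gene in divergent orientation, thus carried promoter states at the TSS bin in all groups. The most frequent state of the 11 bins around the Krt18 TSS was enhancer state 3 in CR 12m. The unbroken stretch of states 1 and 2 at Krt8 measured 1.8 kb in SD 3m, 1.8 kb in SD 12m and 1.6 kb in CR 12m. At Krt18 it measured 2.8, 1.4 and 1.0 kb. In SD 3m the Krt18 stretch reached upstream of the TSS in state 2, and in both other groups state 3 lay there instead.

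The 35.3 kb from the end of Krt8 to the end of Krt18 lay in states 1 to 5 throughout, in every group. State 3 took 69.1%, 77.5% and 83.1% of its bins in SD 3m, SD 12m and CR 12m, and state 5 took 17.98%, 1.12% and 1.12%. State 3 stood over most of this interval in all groups, and poised enhancer bins were few outside SD 3m. The stretch of states 1 to 5 around the pair reached 84.2 kb in SD 3m, and 578.6 kb in each of SD 12m and CR 12m. On one side it ended inside the annotated extent of Krt78, and on the side of Krt18 it ran out of the cluster.

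Krt7 and Krt19, the bile duct keratins, were outside promoter states in every group. Krt7 (chr15:101412403-101427806) had its TSS in state 8 in SD 3m, Polycomb state 6 among the SD 12m labels and enhancer state 4 among those of CR 12m, so each group gave another state. Of the 21 bins centred on its TSS, a window of 2 kb to each side, SD 3m had 10 in state 8, 6 in state 5 and 5 in state 4. All 21 carried state 6 in SD 12m, in a stretch of 19.6 kb. In CR 12m 16 were in state 4 and 5 in state 8. The Krt7 TSS therefore had enhancer states nearby in SD 3m and lay inside a 5.6 kb enhancer stretch in CR 12m. In SD 12m its window was wholly Polycomb.

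Krt19 (chr11:100140810-100145926) was in state 8 in SD 3m and SD 12m and in state 4 in CR 12m. Its 21 bins held 9 of state 5 and 12 of state 8 in SD 3m. In SD 12m they held 5 of state 4, 3 of state 3 and 13 of state 8, and in CR 12m 13 of state 4, 3 of state 6 and 5 of state 8. Enhancer states lay upstream of Krt19 in every group, and they included the TSS in CR 12m. Bile duct cells are a minority of liver cells, and in a bulk tissue fewer cells of a type and less of a mark per cell cannot be told apart.

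The other keratins of simple epithelia carried enhancer states. Krt23, a type I keratin of simple epithelia, was in state 5 in SD 3m and in state 3 in SD 12m and CR 12m. All 21 bins around its TSS were in states 1 to 5 in every group, with 3 bins of state 2 in SD 3m and 21 bins of state 3 in each other group. Krt80 was in states 5, 4 and 5 in SD 3m, SD 12m and CR 12m. Krt20, a keratin of the intestinal and urothelial lining, was in states 5, 6 and 5 and stood on the edge of a Polycomb domain of 48.4 kb in SD 12m. In CR 12m all 7 keratins of simple epithelia were in states 1 to 5, against 5 of 7 in SD 3m and 4 of 7 in SD 12m.

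**Figure D3:**
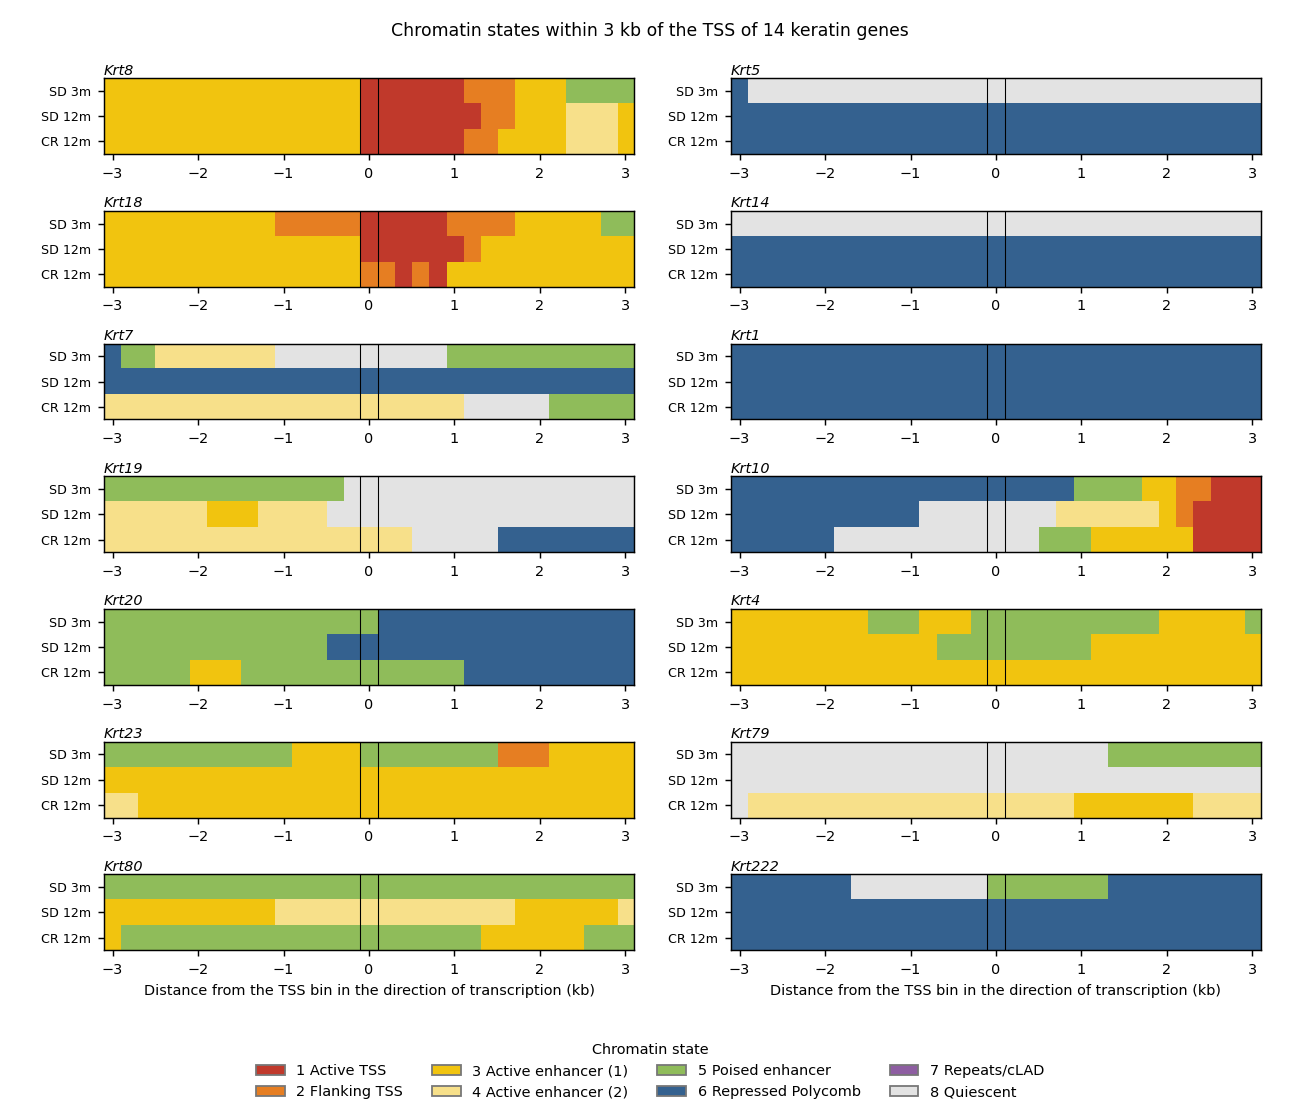
States of the 31 bins centred on the TSS bin (x, distance in kb, in the direction of transcription) of 14 keratin genes, in SD 3m, SD 12m and CR 12m (rows). Thin lines bound the TSS bin. Promoter states stand over the starts of Krt8 and Krt18, Krt7 carries a different state in each group, and Krt5 and Krt14 are quiescent in SD 3m and Polycomb in both other groups.

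Outside this group, 3 further keratins reached states 1 to 5 at the TSS. Krt4, a keratin of the mucosa of mouth and oesophagus, was in state 5 in SD 3m and SD 12m and in state 3 in CR 12m. Krt79, a keratin of the hair canal and sebaceous duct, was in state 8 in SD 3m and SD 12m and in state 4 in CR 12m. Krt222, a keratin-like gene at the first end of the chromosome 11 cluster, was in state 5 in SD 3m and in state 6 in SD 12m and CR 12m. Krt4 and Krt79 are neighbours between the Polycomb domain that holds Krt1 and the Krt8 to Krt18 interval.

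The basal and stress keratins of the epidermis were in states 6 or 8 in every group. Krt5 (chr15:101707069-101712905) and Krt14 (chr11:100203162-100207510), the pair of basal keratinocytes, were both in state 8 in SD 3m and in state 6 in SD 12m and CR 12m. In SD 3m all 21 bins around each TSS were in state 8, and in the other groups all 21 were in state 6. The Polycomb stretch that held Krt5 measured 340.4 kb in SD 12m and 257.6 kb in CR 12m, and that of Krt14 measured 65.4 and 56.2 kb. Both genes of the pair carried the same states although they lie on different chromosomes. Among their relatives, Krt6a and Krt6b, which are induced in wounds, were in state 6 in all groups. Krt16 was in state 8 in all groups, Krt17 in states 8, 6 and 8, and Krt15, a keratin of basal and bulge cells, in states 8, 8 and 6. In all, 2 of 7 were in state 6 in SD 3m and 5 of 7 in each other group.

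Of the 6 suprabasal and palmoplantar keratins, 4 were in state 6 in every group, but not the same 4. Krt1, Krt2 and Krt77 were in state 6 throughout, and Krt1 (chr15:101845426-101850786) lay in Polycomb stretches of 128.6, 114.8 and 127.0 kb in SD 3m, SD 12m and CR 12m. Krt9, the keratin of palms and soles, was in state 8 in SD 3m and in state 6 in both other groups. Krt78 was in state 8 throughout. Krt10, the partner of Krt1, was in state 6 in SD 3m and in state 8 in both other groups. The members of this pair thus differed in both 12-month segmentations.

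Krt10 (chr11:99385254-99397449) was also the only epidermal keratin with promoter states in its body. A stretch of states 1 and 2 measured 2.2 kb in SD 3m, 2.0 kb in SD 12m and 1.6 kb in CR 12m, with 8, 7 and 8 bins of state 1. It lay between 2.16 and 4.36 kb downstream of the TSS in SD 3m (chr11:99385001-99387200), in the 3′ part of the gene and not at its TSS. All start positions of 50-base sequences there were unique in the genome, and states 3 to 5 flanked the stretch in every group.

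Hair keratins were in state 6 or 8 in every group, with few in state 8 at 12 months. Of 15 hair shaft keratins, SD 3m had 9 in state 6 and 6 in state 8, SD 12m had all 15 in state 6, and CR 12m had 14. Krt32, Krt35, Krt36, Krt82 and Krt86 were in state 8 in SD 3m and in state 6 in both other groups, and Krt83 was in states 8, 6 and 8. Of 8 keratins of the inner root sheath and companion layer, 7 were in state 6 in SD 3m and all 8 in both other groups, Krt71 being the one in state 8 in SD 3m. Krt25, Krt26, Krt27 and Krt28, which form the inner root sheath, were in state 6 throughout. Of 5 mucosal and corneal keratins, Krt12, the keratin of the cornea, Krt24 and Krt76 were in state 6 throughout, and Krt13 was in states 8, 6 and 6. All 21 bins around the TSS were in state 6 in every group for 46 members, among them Krt1, Krt2, Krt12, Krt24, Krt26 and Krt27.

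The keratin-associated genes were divided by cluster. Most of those on chromosomes 7 and 11 were in state 6, whereas nearly all of those on chromosome 16 and all 4 outside the clusters were in state 8. In total state 6 held 25, 27 and 28 of 56 in SD 3m, SD 12m and CR 12m, and state 8 held the rest. On chromosome 7, 4 of 5 were in state 6 in SD 3m and all 5 in both other groups, the remaining gene being Krtap5-5. On chromosome 16, 24 of 24 were in state 8 in SD 3m and CR 12m and 23 of 24 in SD 12m. The exception was Krtap7-1, in a Polycomb stretch of 28.8 kb (chr16:89502801-89531600). On chromosome 11, Krtap4-16 was in states 8, 6 and 6, Krtap4-13 in states 8, 8 and 6 and Krtap4-9 in states 6, 8 and 6, and all other Krtap genes there were in state 6 throughout.

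Krtap copies resemble each other closely, and the authors removed reads of mapping quality below 1, as aligners give to reads that fit several places equally. At 5 members under 50% of the 50-base start positions in the TSS bin were unique, with 8% for Krtap4-13, 16% for Krtap5-1, 31% for Krtap5-5, 31% for Krtap6-1 and 49.5% for Krtap13. This is 4.59% of the members, near the 4.90% of all genes. In the chromosome 11 cluster, state 8 took 62.2%, 54.98% and 62.2% of such bins in SD 3m, SD 12m and CR 12m, against 17.7%, 6.86% and 11.2% of the other bins. On chromosome 7 it took 31.2%, 36.4% and 46.8% of such bins against 6.45%, 15.7% and 20.7%. On chromosome 15 the shares were 15.6%, 9.58% and 13.8% against 24.2%, 12.1% and 13.8%, so they were not higher there. Krtap5-1 was in state 6 in every group. State 8 at Krtap4-13 and Krtap5-5 therefore stood in sequence with few unique positions, and the part of this in their state was not tested.

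Along the clusters, state 6 took 70.7%, 80.3% and 75.4% of the bins on chromosome 11 in SD 3m, SD 12m and CR 12m. On chromosome 15 it took 60.4%, 72.5% and 69.0%, and on chromosome 7 85.3%, 76.8% and 71.6%. On chromosome 16 it took 0%, 5.12% and 1.58%. Over all autosomes it took 8.26%, 12.4% and 9.42%. Clusters on chromosomes 7, 11 and 15 were thus Polycomb domains in every group, and the chromosome 16 cluster was not. The difference between SD 3m and the 12-month groups was not of one sign, since the chromosome 7 share was highest in SD 3m.

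**Figure D4:**
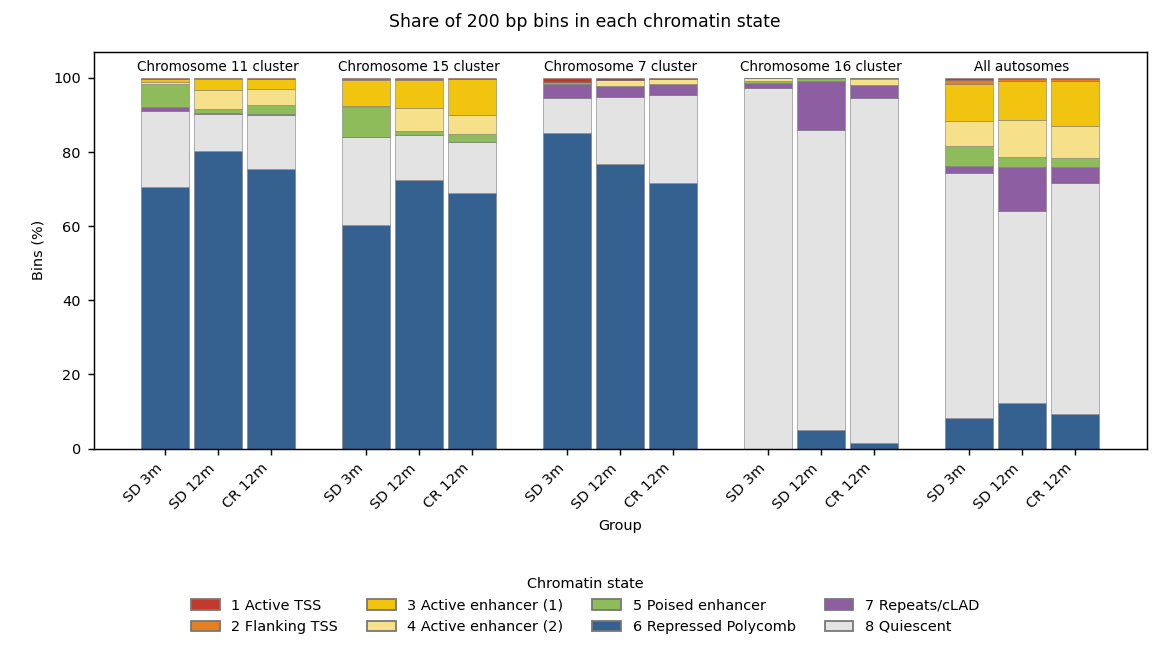
Share of 200 bp bins (y, percent) in each state in the 4 clusters and over all autosomes, in SD 3m, SD 12m and CR 12m (x). State 6 takes more than 60% of the bins of the chromosome 7, 11 and 15 clusters in every group, and state 8 more than 80% of the bins of the chromosome 16 cluster.

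Bins in another state than in SD 3m made up 24.8% of the chromosome 11 cluster for SD 12m and 23.96% for CR 12m. The chromosome 15 cluster had 26.4% and 22.1%, that on chromosome 7 had 27.8% and 22.3%, and that on chromosome 16 had 17.6% and 6.12%. Over all autosomes the values were 31.9% and 24.2%, so no cluster lay above the autosomes in SD 12m or in CR 12m. On chromosome 11, the SD 12m labels put 64.3% of the quiescent bins of SD 3m into state 6, and those of CR 12m put 53.2% there. On chromosome 15 these shares were 57.2% and 41.5%. In the reverse direction, 3.93% and 6.79% of the state 6 bins on chromosome 11 were in state 8, and 4.70% and 3.63% of those on chromosome 15. Over the autosomes, 11.3% and 7.38% of the quiescent bins were in state 6, and 37.6% and 43.5% of the Polycomb bins in state 8. On chromosome 7, 72.1% and 23.0% of the 61 quiescent bins were in state 6, and 19.3% and 20% of the 555 Polycomb bins in state 8. As shares of that whole cluster these were 6.76% and 2.15% against 16.4% and 17.1%, so more bins there left the Polycomb label than took it.

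The longest unbroken stretch of Polycomb bins of SD 12m exceeded that of SD 3m on chromosomes 15 and 11. The longest on chromosome 15 measured 154.0 kb in SD 3m with 4 member TSS, 340.4 kb in SD 12m with 13 (chr15:101423801-101764200), and 257.6 kb in CR 12m with 8. The SD 12m stretch ran from Krt87 to Krt71 and held hair, companion layer and epidermal keratins alike. On chromosome 11 the longest measured 195.6 kb with 14 member TSS in SD 3m, 262.8 kb with 15 in SD 12m (chr11:99520401-99783200), and 187.6 kb with 14 in CR 12m. On chromosome 7 it measured 44.8, 39.8 and 40.4 kb inside the cluster. There the SD 12m and CR 12m stretches begin at the first bin of the cluster and were cut at it. Their full lengths are not known, so they cannot be set against that of SD 3m. The 17 TSS that went from state 8 to state 6 in SD 12m lay in 8 separate Polycomb stretches of SD 12m. The 14 in CR 12m lay in 8 of CR 12m. These stretches include bins already in state 6 in SD 3m, so they do not count events of change. The 340.4 kb stretch of SD 12m held Krt86, Krt83, Krt82, Krt5 and Krt71. Of the bins there that went from state 8 to state 6, Krt86 and Krt83 shared an unbroken stretch. Krt82, Krt5 and Krt71 each lay in another.

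**Figure D5:**
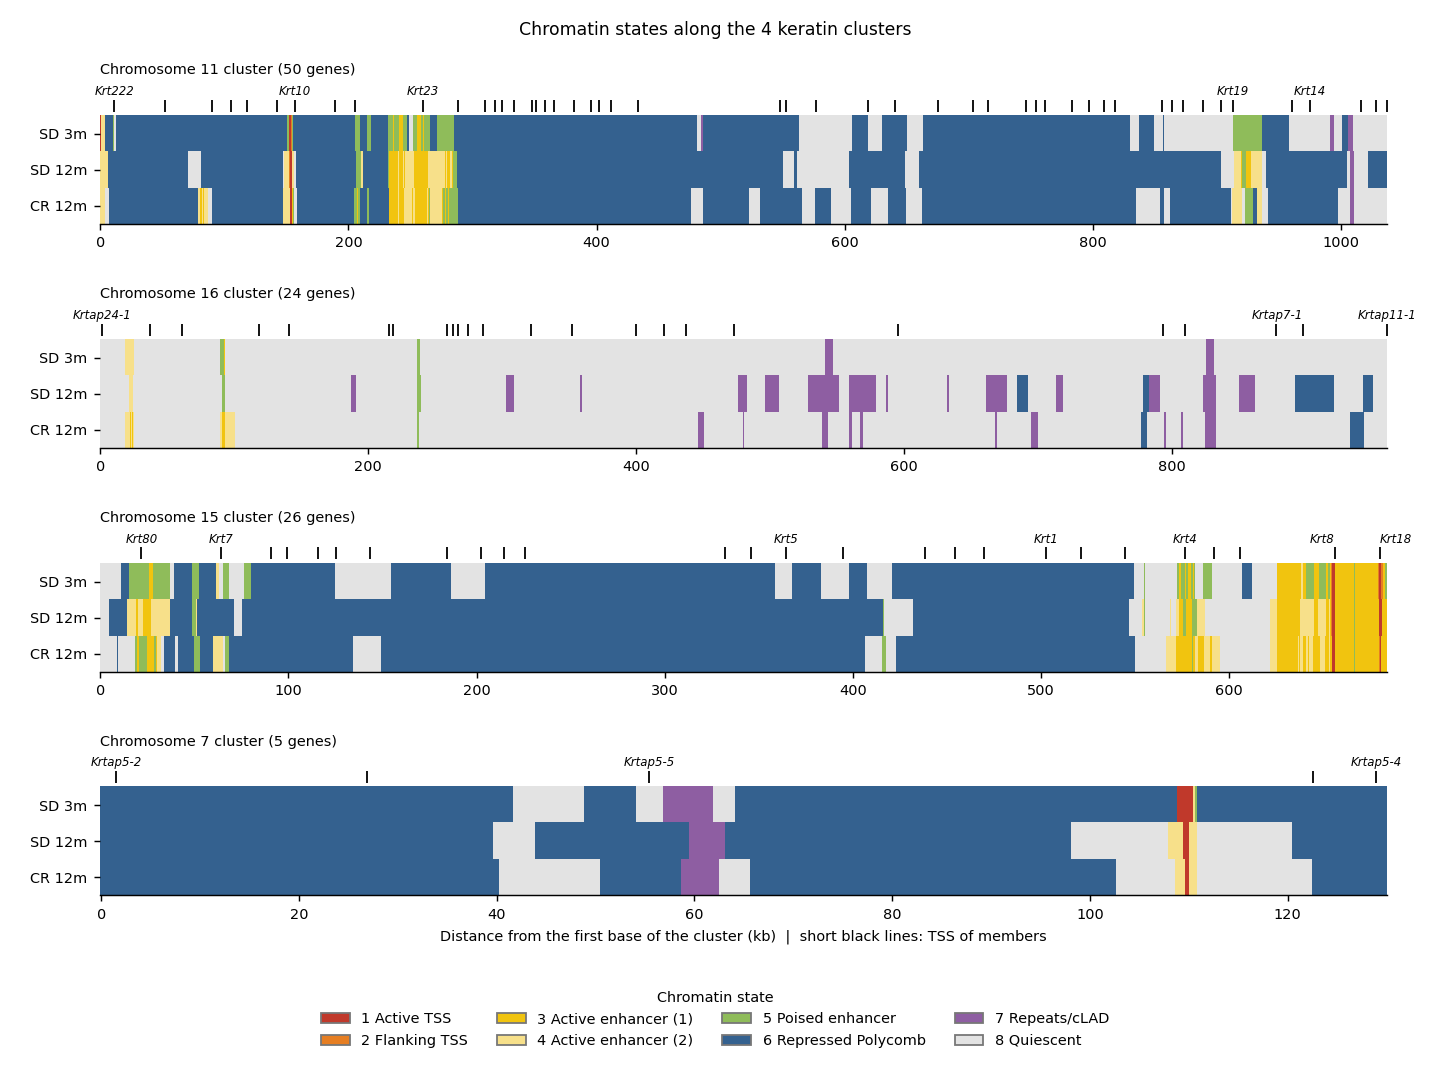
States along the 4 clusters (x, distance in kb from the first base of each cluster) in SD 3m, SD 12m and CR 12m (rows), with the TSS of members as short black lines. Polycomb chromatin spans most of the chromosome 7, 11 and 15 clusters, enhancer and promoter states fill the end that holds Krt8 and Krt18, and stretches of state 7 appear in the chromosome 16 cluster, most of them in SD 12m.

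Inside the chromosome 11 cluster the net difference in the share of state 6 lay mainly at one end, a division chosen after the values were seen. From Krt222 to Krt31, 818 kb with 39 members, state 6 took 83.4%, 81.5% and 79.9% of bins in SD 3m, SD 12m and CR 12m. Labels there still differed in both directions in SD 12m, with stretches of 11.6 kb from state 8 to state 6 and 10.8 kb from state 6 to state 8. The space between Krt31 and Krt32 is in neither part. From Krt32 to Krt42, 189 kb with 11 members, state 6 took 15.01%, 71.7% and 59.1%. All 11 TSS at this end were in state 8 in SD 3m. In SD 12m 8 of them were in state 6, and in CR 12m 7 were in state 6 and Krt19 in state 4. Here the hair shaft keratins Krt32, Krt35 and Krt36 carried states 8, 6 and 6, as did Krt14 among the basal and stress keratins, whereas Krt15, Krt16 and Krt17 each had another pattern. On chromosome 15, from Krt87 to Krt76, 461 kb with 19 members, state 6 took 81.7%, 96.5% and 93.3%.

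State 7 took 0% of the chromosome 15 cluster in every group, and 0.868%, 0.289% and 0.328% of the chromosome 11 cluster in SD 3m, SD 12m and CR 12m. On chromosome 7 it took 3.84%, 2.76% and 2.92%, as a single stretch of 3.6 to 5.0 kb beside Krtap5-5. On chromosome 16 it took 1.23%, 13.0% and 3.41%, against 1.92%, 11.9% and 4.35% of the autosomes. The chromosome 16 share was near that of the autosomes, and the 3 others lay below it in SD 12m. With clusters cut at gaps of 100 kb, which leaves out the space between Krtap6-3 and Krtap21-1, the share over all clusters in SD 12m was 1.69% and not 4.67%. In SD 12m the chromosome 16 cluster held 14 stretches of state 7, the longest of 23.2 kb (chr16:89139201-89162400), and none of them reached a member TSS. They did hold the TSS of 9 of the 34 other protein-coding genes in that cluster. The members with the most state 7 within 2 kb of the TSS were Krtap21-1, with 9.52% of bins in SD 12m and 23.8% in CR 12m, and Krtap6-2, with 28.6% in CR 12m only. Krtap5-5 followed with 14.3% in SD 3m only.

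The clusters also differed in sequence and surroundings. GC content was 46.2% on chromosome 7, 44.1% on chromosome 11, 48.3% on chromosome 15 and 38.8% on chromosome 16, against 41.9% over the autosomes. Repeats took 40.7% of the chromosome 7 cluster, 26.1% of that on chromosome 11, 21.5% of that on chromosome 15 and 34.8% of that on chromosome 16, against 33.5% of the autosomes. The nearest other genes with a TSS in states 1 to 3 in all groups were Smarce1 and Eif1, 1.74 and 49.998 kb from the ends of the chromosome 11 cluster, and Atg101 and Eif4b, 64.01 and 41.7 kb from those on chromosome 15. They were Mob2 and Ctsd, 113 and 83.3 kb away, on chromosome 7, and Cct8 and Sod1, 1115 and 650 kb away, on chromosome 16. The quiescent cluster was thus poor in GC and far from active genes, and the Polycomb clusters were closer to them. In CpG density, however, the quiescent cluster (6.68 per kb) was near the Polycomb cluster on chromosome 7 (6.61 per kb). The clusters on chromosomes 11 and 15 held 9.78 and 10.9 per kb, and the autosomes 8.51. On chromosome 7 a stretch of state 1, of 1.6, 0.6 and 0.4 kb in SD 3m, SD 12m and CR 12m, stood between Krtap5-5 and Krtap5-1, 12.1 kb from the Krtap5-1 TSS in SD 3m, and overlapped no member.

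Within the clusters, member bodies and the space between them did not carry state 6 equally. On chromosome 15, state 6 took 45.1% of bins in member bodies and 70.1% of those between them in SD 3m, 62.1% and 79.2% in SD 12m, and 57.9% and 76.1% in CR 12m. On chromosome 11 the values were 61.3% and 73.2% in SD 3m, 78.99% and 80.59% in SD 12m, and 66.7% and 77.7% in CR 12m. On chromosome 7, with 37 bins in member bodies, the values were 81.1% and 85.5% in SD 3m, 100% and 75.4% in SD 12m, and 89.2% and 70.5% in CR 12m. With genes taken at their annotated extent, state 6 took a larger share between genes than in them on chromosomes 11 and 15 in every group. It took a smaller share between genes on chromosome 7 in both 12-month groups. On chromosome 15, Krt78 alone supplied 254 of the 1334 bins in member bodies. State 6 took 0% of its bins in SD 12m and CR 12m. Most of its annotated extent lies upstream of the TSS used here. Whether the chromosome 15 direction holds without that upstream part was not tested.

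For comparison, the set for the epidermal differentiation complex on chromosome 3 held 62 genes. It joined genes for the cornified envelope of keratinocytes with all S100a genes of that chromosome, which are not all epidermal. State 6 held 10 (16.1%), 17 (27.4%) and 14 (22.6%) of these TSS in SD 3m, SD 12m and CR 12m, against 47.7%, 63.3% and 60.6% of the keratin members. Of 1103 olfactory receptor genes, another clustered family that liver does not use, state 7 held 19, 270 and 86 TSS and state 6 held 108, 241 and 155, against 0 in state 7 of the 109 members in each group. Keratin genes thus showed more Polycomb label than either set as defined here, as counts without a test. Among 24 genes for keratin partners (desmosome proteins, plakins and transglutaminases), 12 TSS were in states 1 to 5 in SD 3m and 15 in each other group. This share was below that of all autosomal protein-coding genes, given above, in SD 3m and near it in both other groups. Dsp, the desmoplakin that anchors keratins, was in state 4 in SD 3m and in state 1 in both other groups, Jup, plakoglobin, was in state 2 throughout, and Plec, a plakin that links keratins to hemidesmosomes, was in state 3 throughout. Pkp1, an epidermal plakophilin, was in state 6 throughout.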

How the data were processed

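The authors aligned reads of each library to mm10 with BWA 0.6.2-r126, handled them with SAMtools 0.1.18 (versions from the submitters' processing notes), removed reads of mapping quality under 1 and duplicates and merged the libraries of a group. With ChromHMM they deposited 1 state label, from 1 to 8, per 200 bp bin, which is a category and neither a count nor a signal. Each segmentation was assigned to the group named on it. Depth behind a label is unknown.

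From the labels, states at TSS and shares of bins were counted in Python 3.11.15 with numpy and pandas. Genes and sequences came from RefSeq on GRCm38.p6, the assembly of mm10. A start position was unique where its 50 bases occurred once on either strand of the reference. The functions were tested on simulated data. No test was made, as each group has 1 segmentation.

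Members, gene lists and alternatives were chosen with earlier results of these data known. Genes named were the hepatocyte, bile duct and main epidermal keratins, members in states 1 to 5 in any group, the 6 with most state 6 or 7 around the TSS, first and last members of clusters and the nearest active neighbours. Other members named were chosen after their values were seen. Alternatives were other TSS, windows, merged classes, cluster gaps and filters on overlapping genes and unique positions.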

Additional observations from a re-analysis of the deposited data

How the results depend on the processing

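No paired analysis was possible because each group has 1 segmentation of merged libraries, and replicates could not be left out for the same reason. Of 104 alternative values, 82 stayed within 1.5 times a count, within the Wilson 95% interval of a percentage or at the same state, and 22 did not. That interval treats the bins as independent draws, although neighbouring bins share long stretches of one state. It therefore measures no spread and serves here only as a fixed limit for this count. All counts of TSS stayed within 1.5 times. For every member the most upstream curated start was the TSS already used, so that alternative could not differ. Its values are among the 82. The start sites of the promoter table, an alternative chosen after seeing the data, differed only at Krt14, which kept the same states. Both alternatives therefore tell little about dependence on the start site. With the most frequent state of 11 bins, Krt18 was in state 2 in SD 3m and in state 3 in CR 12m. For cluster bins in another state than in SD 3m (22.8% for SD 12m, 17.3% for CR 12m, over the 4 clusters), 5 merged classes gave 19.4% and 14.8%, gaps of 100 kb gave 23.6% and 19.7%, and leaving out bins of few unique positions gave 18.1% in CR 12m. For state 7 (0.917%, 4.67% and 1.42% in SD 3m, SD 12m and CR 12m), gaps of 100 kb gave 1.69% in SD 12m and 1.02% in CR 12m, windows of 10 kb gave 0.357%, 4.29% and 0.357%, and leaving out bins of other protein-coding genes gave 0.752% in SD 3m. For state 6 (44.7%, 52.6% and 48.5%), gaps of 100 kb gave 45.9%, 54.9% and 51.0%, windows of 10 kb gave 45.7%, 53.6% and 49.3%, and unique bins gave 45.9%, 54.1% and 49.9%. State 6 was higher in SD 12m and CR 12m than in SD 3m under each of these. Gaps of 100 kb split the clusters into 7 and leave out the space between Krtap6-3 and Krtap21-1. Merging before segmentation and unknown depth limit all comparisons between groups.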

Other observations

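Protein-coding genes that are no members by symbol also lie inside the clusters, most of them predicted genes with Gm symbols. On chromosome 11, state 6 held 10, 12 and 11 of 15 such TSS in the order SD 3m, SD 12m, CR 12m, and state 8 held the rest. On chromosome 7, state 6 held 5, 3 and 4 of 5. On chromosome 16, state 7 held 1, 9 and 2 of 34, whereas 0 of the 24 members there were in state 7 in any group. The 9 of SD 12m lay between Krtap6-3 and Krtap21-1, where Krtap20-2 is the only member. The contrast with the members therefore cannot be told apart from position in the cluster. In the TSS bins of these 9 genes, the share of unique 50-base starts was lowest for Gm7735, at 37%, and Gm35342, at 76.5%.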
